A study of Danio rerio with 4 samples.

Results

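Vinculin, the talins and the focal adhesion genes ilk, pxna, zyx and actn1 were followed in ventricle RNA from ccn2a mutant and wild-type zebrafish. The listed symbols number 9, of which 8 have a row in the deposited table, and these give 9 rows because the symbol vcla is carried by 2 Ensembl genes. The table holds 19875 genes in all. The members were chosen by name with the mutant against wild-type values of these same libraries known, so that contrast is described for them and not tested. All 9 rows are protein-coding and all 9 passed the filter on low values, with a mean of at least 10, as did 16730 genes of the table.

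The study profiled 2 libraries labelled ccn2a-/- and 2 labelled wild-type, all from cardiac ventricles taken at 4 dpci, the labels' term for 4 days after injury, with atrium and bulbus arteriosus removed. No other allele, agent or age is stated, the lesion in ccn2a and the relation between the stocks are not given, and no uninjured or other time point belongs to the groups. The labels do not say whether a library was 1 heart or a pool, so the spread between libraries may be technical. Values are read counts that the authors divided by a size factor per library and rounded, called normalised read counts here.

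Focal adhesions are the sites where integrins, spanning the membrane, are tied to actin inside the cell. Talin binds the integrin tail and unfolds under load, which uncovers binding sites for vinculin, and vinculin then holds talin to actin. Paxillin and the complex around integrin-linked kinase gather signalling and structural partners at the same site, while zyxin and alpha-actinin work on the actin bundles that end there. In heart muscle, vinculin and talin also form the costameres that hold the sarcomere to the cell surface, and vinculin sits at the cadherin junctions of the intercalated disc.

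Approximate depth was 17.2 to 21.5 M reads per library. The ccn2a transcript (symbol ctgfa in the table) was at 3070 and 1473 in mutants 1 and 2 and at 4737 and 4411 in wild types 1 and 2, a weak check of the labels since the lesion is not known. Heart muscle markers were abundant in every library, with a summed level of the 9 cardiomyocyte markers between 456946 and 851548, and none of the 53 marker rows measured was at 0 (lowest value 10). Mutant replicate 1 and wild-type replicate 2 stood apart. Among the 13022 genes with a mean of 50 or more, 586 (4.50%) were in mutant replicate 1 at under 0.5 times their value in every other library, and 398 (3.06%) were so in wild-type replicate 2, against 33 and 12 in the remaining libraries. No member was among them. Over all 16730 genes, 0% passed an adjusted p of 0.05 in limma (smallest adjusted p = 0.207). The unadjusted p was under 0.05 at 2145 genes, with 6.93% of all genes lower in the mutant and 5.89% higher. The same limma test after voom weighting of approximate reads gave 0 at the adjusted threshold and 2452 unadjusted.

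The gene with the greatest difference among the members was a vinculin, and the row's own annotation disagrees with its symbol. It is ENSDARG00000098695 on the plus strand of chromosome 12 (46791907 to 46835940). Its symbol in the table is vcla, while the UniProt columns of the same row name it vclb, vinculin b. The other vcla row, ENSDARG00000044968, lies on the minus strand of chromosome 13 (25211939 to 25284716) and is vcla in the UniProt columns too. The 5 genes on either side of each row gave the same answer. Of the 10 around the chromosome 12 row, 9 lie within 15 protein-coding genes of vclb in the RefSeq table of the GRCz12tu assembly and 0 lie so near vcla. Of the 10 around the chromosome 13 row, 10 lie near vcla and 0 near vclb. The chromosome 12 row is therefore called vclb here, and no row carries that symbol itself.

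The vinculin b gene vclb was at 251 and 356 in mutants 1 and 2, and its wild-type levels were 1224 and 2294. Both mutant libraries lay far below both wild types, and the lower wild type was still above 3 times the higher mutant. The means were 304 ± 74.2 in the mutant and 1759 ± 757 in wild type (SD, n = 2 each). The log2 difference was -2.48 (SE 0.352), a level 5.59-fold lower. It was the 125th lowest difference of the 16730 genes, and 42 of the 13022 genes with a mean of 50 or more were as low or lower, vclb included. Approximate reads were 219 and 337 in mutants versus 1165 and 3029, so the counting error of a library was 6.75% at most. The wild types differed from each other by 0.91 on the log2 scale, far more than counting error, and the mutants by 0.50. Leaving out 1 library at a time gave log2 differences from -2.94 without wild-type replicate 1 to -2.03 without wild-type replicate 2.

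The paralog vcla was at 288 and 339 in the mutants and at 422 and 476 in wild type. The groups did not overlap, but the gap was narrow beside that of vclb. Its means were 314 ± 36.1 and 449 ± 38.2, and its log2 difference was -0.52 (SE 0.223). Counted together, the vinculin rows summed to 539 and 695 in the mutants and to 1646 and 2770 in wild type. The ratio of vclb to vcla was 0.872 and 1.05 in mutants versus 2.90 and 4.82 in wild type. As a share of the sum, vclb made up 46.6% and 51.2% in the mutants and 74.4% and 82.8% in wild type. The ratio's own level depends on transcript lengths that were not used here, while its change between libraries does not. Most of the difference in the sum lay in the vclb row, and vcla was not higher in the libraries where vclb was low. Reads that match both paralogs could be divided between their rows by the counting, whose settings are not given.

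**Figure D1:**
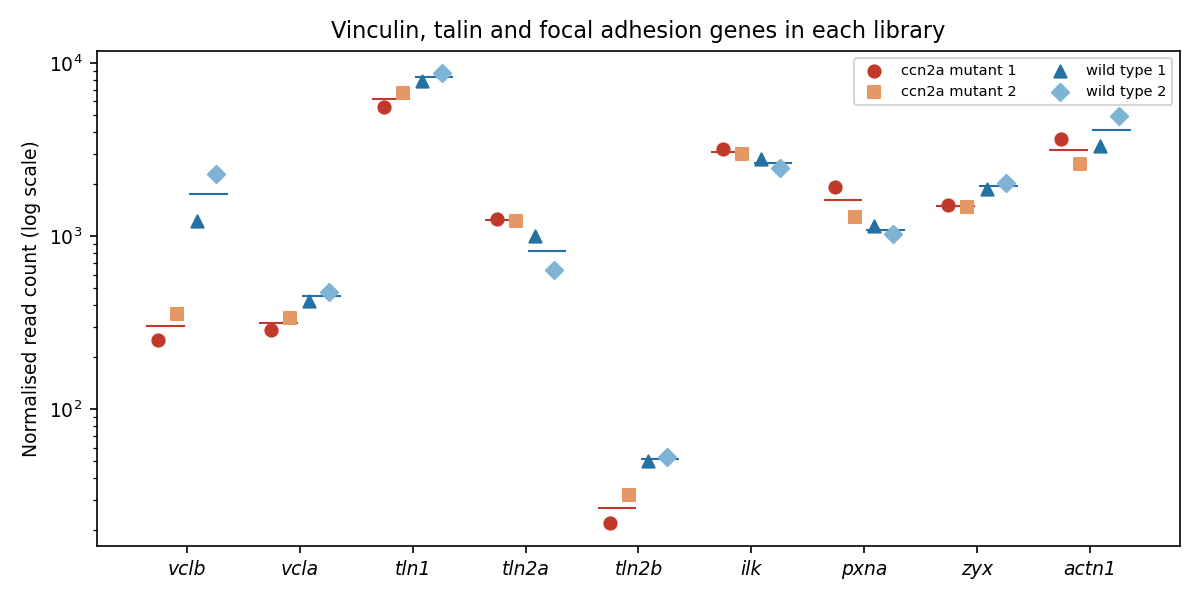
Normalised read counts (log scale) of the 9 member genes in each library, with the colour and shape of a point giving the library and a line giving the mean of each genotype (n = 2). The row vclb stood at 251 and 356 in mutants versus 1224 and 2294 in wild type, while the other 8 genes spanned smaller gaps.

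A difference as large as that of vclb was not seen at the genes around it. Only 0.747% of all tested genes were as low or lower, so 10 genes would seldom hold another. Nothing about the locus is read from this. The 10 tested genes taken on chromosome 12, 5 on either side, had log2 differences from -0.81 to 0.64. Their start positions lay from -1130 kb to 159 kb relative to that of vclb. The exocyst gene exoc7 was at 813 and 746 in the mutants and 742 and 748 in wild type. The adenosine kinase gene adkb was at 225 and 177 against 196 and 195. At both genes the groups overlapped, unlike at vclb between them. The ends of the range were hpdl, at 87 and 189 against 229 and 223, and lhpp, at 284 and 214 against 160 and 155. The groups did not overlap at either of these. Around vcla on chromosome 13 the 10 genes taken in the same way ran from -0.55 to 1.55. The value of -0.52 for vcla lay inside that range, near its lower end. There adka, the paralog of adkb, was at 921 and 662 against 837 and 611. No gene of the table overlapped either vinculin row.

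**Figure D2:**
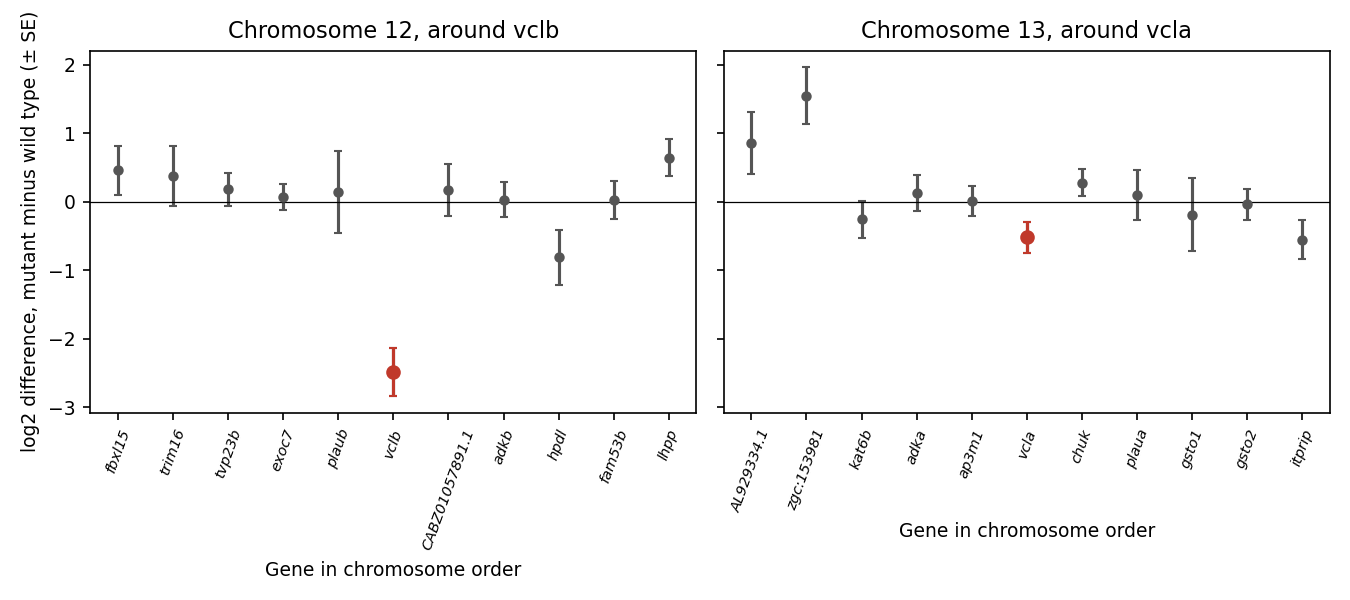
The log2 difference, mutant minus wild type, with its SE (n = 2 against 2) for vclb and vcla (red) and the 5 tested genes on either side of each, in chromosome order. The value for vclb is -2.48 and its neighbours lie between -0.81 and 0.64, where 0.747% of all tested genes were as low as vclb or lower. The value of -0.52 for vcla lies within the range of its neighbours, near the lower end.

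Among the talins, which carry force from integrin to actin, the main gene and its paralog leaned opposite ways. Talin 1, tln1 (ENSDARG00000100729, chromosome 10, 6121558 to 6313905), was at 5605 and 6752 in the mutants and at 7923 and 8735 in wild type. Both mutants were below both wild types, by a modest step, with means of 6179 ± 811 and 8329 ± 574. The log2 difference was -0.44 (SE 0.210). Quantile normalisation made it -0.65.

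The paralog tln2a (ENSDARG00000017901, chromosome 7, 29863548 to 29946044) was at 1263 and 1216 in the mutants and at 998 and 640 in wild type. Here the mutants were the higher pair and nearly equal, while the wild types lay far apart. Its means were 1240 ± 33.2 and 819 ± 253, and the log2 difference was 0.63 (SE 0.259). That value was 0.31 without wild-type replicate 2 and 0.95 without wild-type replicate 1. The ratio of tln2a to tln1 was 0.225 and 0.180 in the mutants and 0.126 and 0.0733 in wild type.

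The third talin, tln2b (ENSDARG00000110973, chromosome 25, 33033633 to 33151690), had few reads. It was at 22 and 32 in the mutants and 50 and 53 in wild type, again with the mutants lower. Its log2 difference was -0.93 (SE 0.418), the second most negative among the members. At this depth the counting error of the mutant libraries was 22.8% and 18.2%. The 3 talin rows together summed to 6890 and 8000 in the mutants and to 8971 and 9428 in wild type, a narrower gap than that of tln1 alone.

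**Figure D3:**
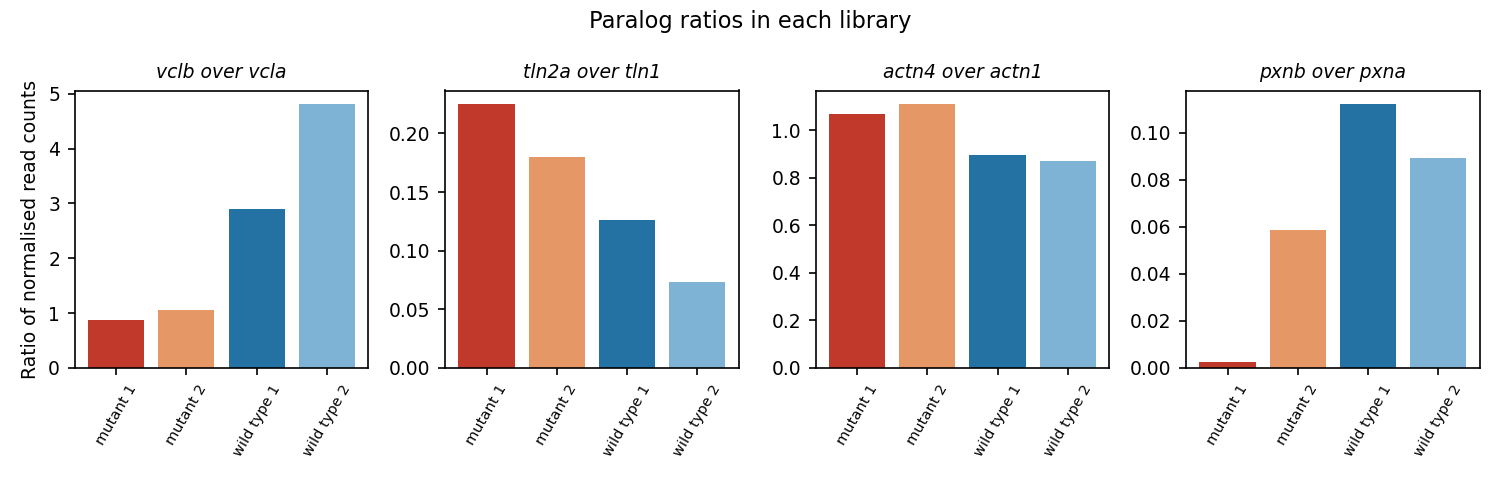
Ratio of the normalised read counts of paralogs in each library, with 1 bar per library, from 0. The ratio of vclb to vcla was 0.872 and 1.05 in mutants versus 2.90 and 4.82 in wild type, and that of tln2a to tln1 ran from 0.225 down to 0.0733. The ratio of actn4 to actn1 was 1.07 and 1.11 against 0.896 and 0.871, and that of pxnb to pxna was 0.00259 and 0.0586 against 0.112 and 0.0891.

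Integrin-linked kinase, ilk (ENSDARG00000056964, chromosome 10, 24722580 to 24759616), is the scaffold of the complex with PINCH and parvin, and zebrafish need it for heart contraction. It was at 3180 and 2966 in the mutants and 2807 and 2482 in wild type. The mutants were the higher pair by a small step, with a log2 difference of 0.22 (SE 0.187), or 0.09 under quantile normalisation. The row overlaps smpd1 on the same strand, and smpd1 was at 326 and 319 against 468 and 389, the other way. It was the only member whose row overlapped another gene of the table.

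The paxillin gene pxna (ENSDARG00000088590, chromosome 5, 6670945 to 6718120), which encodes the adaptor that recruits kinases to adhesions, was at 1933 and 1296 in the mutants and 1147 and 1032 in wild type. The mutants were higher, but mutant replicate 1 set most of the gap. Its log2 difference was 0.54 (SE 0.248), which was 0.25 without mutant replicate 1 and 0.83 without mutant replicate 2. The paralog pxnb, which is no member, went the other way at 5 and 76 against 129 and 92, and it was one of the genes that were very low in mutant replicate 1. Without that library the log2 difference of pxnb was -0.51 in place of -2.35 (adjusted p = 0.401 with all libraries, limma).

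Zyxin, zyx (ENSDARG00000075733, chromosome 16, 17302452 to 17347727), is recruited to strained actin bundles and repairs them. It was at 1523 and 1466 in the mutants and 1876 and 2020 in wild type. Each genotype was tight and the mutants were lower, with means of 1495 ± 40.3 and 1948 ± 102. The log2 difference of -0.38 (SE 0.180) had the smallest SE of any member.

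Alpha-actinin 1, actn1 (ENSDARG00000007219, chromosome 13, 36321088 to 36391502), crosslinks actin at adhesions outside the Z-disc. It was at 3638 and 2627 in the mutants and 3308 and 4956 in wild type, and it was the only member whose groups overlapped. The log2 difference of -0.39 (SE 0.281) was -0.10 without wild-type replicate 2 and -0.68 without wild-type replicate 1. Its non-muscle paralog actn4 was at 3882 and 2919 against 2964 and 4318, also overlapping. The muscle paralog actn2b, the alpha-actinin of the Z-disc, was lower in both mutants (adjusted p = 0.386, limma), with a log2 difference of -0.78 (SE 0.310). The remaining paralogs were scarce, actn3b at 35 and 33 against 16 and 18 and actn3a at 16 and 7 against 19 and 19.

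Set side by side, 6 member rows were lower and 3 were higher. Their median log2 difference was -0.39, and that of all tested genes was 0.00. The groups did not overlap at 5 lower rows, where 25.7% of all genes had non-overlapping groups with the mutant lower. They did not overlap at 3 higher rows, where the background was 26.6%. Leaving vclb aside, the median size of the difference was 0.48 over the members and 0.37 over all genes. Since the members were chosen with this contrast in view, nothing is read from these counts.

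The order of the libraries was also compared between members. The rows vclb, vcla, tln1 and tln2b all had values increasing in the order mutant replicate 1, mutant replicate 2, wild-type replicate 1, wild-type replicate 2, an order shown by 13.3% of all genes. The values of tln2a, ilk and pxna decreased in that order, as did 14.6% of all genes. Both orders need groups that do not overlap. Of the 4306 genes non-overlapping with the mutant lower, 2233 rose in that order. Of the 4447 non-overlapping with the mutant higher, 2441 fell in it. Since the members were chosen with this contrast in view, nothing is read from their orders. Profiles were compared by the root-mean-square difference of their centred log2 values over the 4 libraries. Of the 36 member pairs, vcla and tln1 were the most alike, at 0.045, and vclb and tln2a the least, at 1.66. The pairs among tln2a, ilk and pxna lay between 0.233 and 0.264. The shape of vclb was far from every other member, its nearest being tln2b at 0.829, because its step was so much larger.

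By the same measure, the genes with a mean of 50 or more most like vclb were tppp (0.208), mrc2 (0.240), rpe65b (0.285), acta1a (0.296) and itpk1a (0.297). Among these, tppp was at 97 and 189 in the mutants and 630 and 1300 in wild type, and mrc2, which encodes a receptor that takes up collagen, was at 21 and 26 against 91 and 126. The skeletal alpha-actin gene acta1a had the same order, with 4062 and 8333 against 19280 and 30538. Nearest to vcla were snrpe (0.016), slc12a2 (0.018), ndc1 (0.019), mafbb (0.020) and ttll4 (0.021), all within a small fraction of a log2 unit.

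Summed levels of some marker lists followed the same orders, but not all of their single markers did. Over all genes, 13.3% had the increasing order and 14.6% the decreasing one. The 5 macrophage markers summed to 8876 and 9692 in the mutants and 12388 and 12727 in wild type, and 4 of the 5 were non-overlapping and lower (25.7% of all genes). The sum has the order of vclb, vcla, tln1 and tln2b, but only 1 of the 5 markers, c1qb, has it. The cardiomyocyte markers summed to 851548 and 782303 against 670819 and 456946, with 5 of 9 non-overlapping and higher (26.6% of all genes). The 5 erythrocyte markers, mostly hbaa1, summed to 117141 and 101210 against 68262 and 52243, with 5 of 5 higher. Both sums have the order of tln2a, ilk and pxna, shown by 3 of the 9 cardiomyocyte markers and 4 of the 5 erythrocyte markers, and it is also that of the share of mitochondrial-genome transcripts (14.7% and 13.6% in the mutants, 13.4% and 7.66% in wild type). Endothelial markers were also higher, at 5 of 5, with sums of 20502 and 20496 against 16125 and 14320. These sums decreased in the same order too, with the mutants almost equal, but only 1 of the 5 markers did.

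Sums of smooth muscle and mural markers, 38732 and 45980 in mutants versus 38684 and 47744, overlapped and were mostly desma. Of these 6 markers, tagln and cnn1b were non-overlapping and lower and 1 was higher. The sums also overlapped for fibroblast markers (142622 and 71182 against 86048 and 102435), which were non-overlapping at 0 of 5. Epicardial sums, mostly aldh1a2, were 8841 and 8181 against 8882 and 9829. They were lower in the mutants by a narrow gap, with 2 of 4 markers non-overlapping and lower. Thrombocyte sums were 10248 and 5214 against 3725 and 4911, with 1 of 5 non-overlapping and higher. Neutrophil sums, mostly mmp9, were 2070 and 1939 against 2119 and 2474, with 2 of 5 rows non-overlapping and lower. Over all genes, groups were non-overlapping and lower at 25.7% and higher at 26.6%. Skeletal muscle markers, some of which the heart also uses, summed to 94112 and 85379 against 86425 and 82492. The part of cell composition in the member values was not tested. In whole-ventricle RNA, fewer cells of a type and less RNA per cell cannot be told apart.

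The partners of these proteins were read from 8 lists, with members left out. None of their 182 tested genes passed (smallest adjusted p = 0.381, limma). At an unadjusted p under 0.05 there were 14 lower and 5 higher, beside backgrounds of 6.93% and 5.89% of all genes. Over the 8 lists together, 109 were lower and 73 were higher (median log2 difference -0.10). The count of 19 at an unadjusted p under 0.05 became 5 when mutant replicate 1 was left out, 2 when wild-type replicate 2 was, 35 when mutant replicate 2 was, and 31 with the replicate number as a block.

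**Figure D4:**
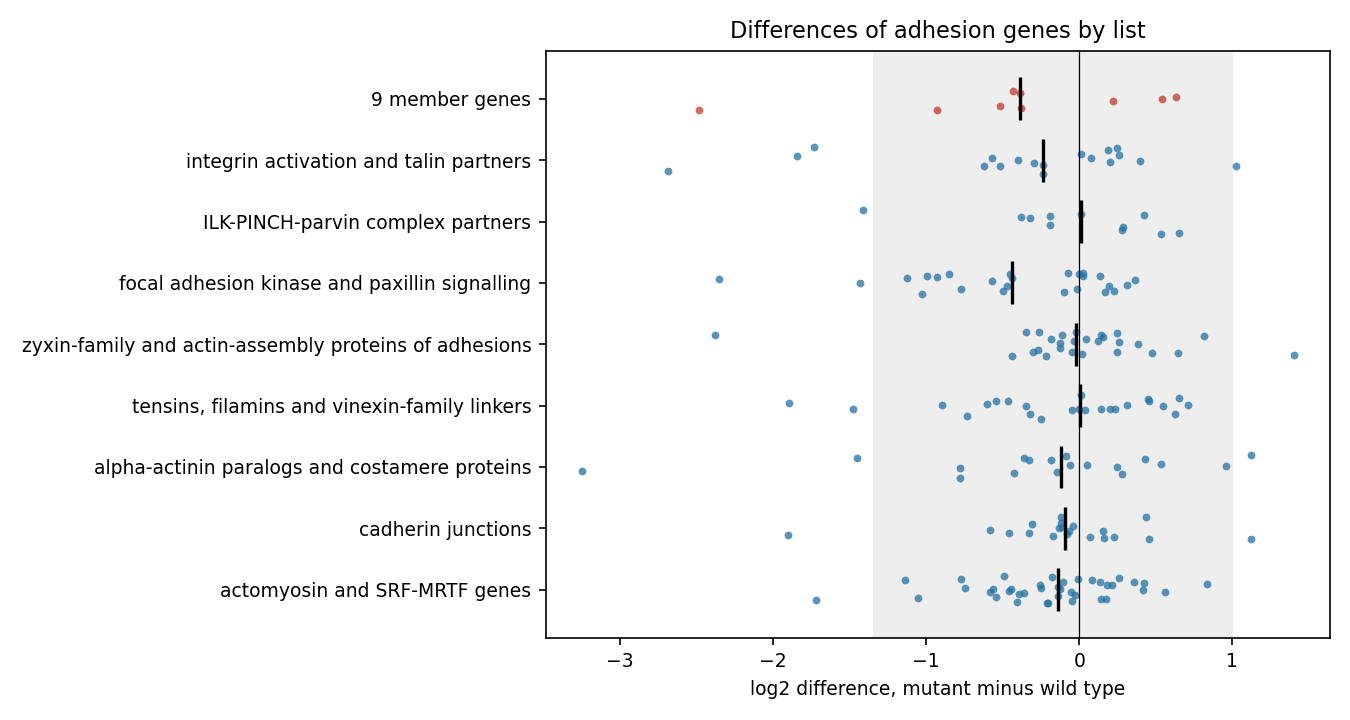
The log2 difference, mutant minus wild type, of each tested gene in the 8 adhesion lists (blue) and of the 9 member genes (red), with a black bar at each median and grey shading from the 5th to the 95th percentile of all tested genes (-1.34 to 1.00). Most genes lie inside the shaded range, and vclb at -2.48 lies well outside it.

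The list of integrin activation genes and talin partners had 10 of 18 genes lower (median -0.24). With any 1 of the 4 libraries left out, that median lay between -0.12 and -0.033. Kindlin-2, fermt2, which binds the integrin tail beside talin, was at 5 and 75 in the mutants and 132 and 141 in wild type. The talin-binding KANK gene kank2 was at 27 and 78 against 228 and 123, and its relative kank1b at 152 and 93 against 54 and 62, in opposite directions. The gene rapgef1a, an activator of the Rap1 switch upstream of talin, was at 23 and 95 against 137 and 183. In 3 of these 4 genes mutant replicate 1 was under 0.5 times every other library, and without it the log2 differences were -0.85 for fermt2 in place of -2.69, -1.09 for kank2 in place of -1.84 and -0.73 for rapgef1a in place of -1.73.

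Partners of ilk showed no common direction, with 5 of 11 lower (median 0.01). Beta-parvin, parvb, the actin-binding partner abundant in muscle, was at 2812 and 2919 in mutants versus 1882 and 1761, with a log2 difference of 0.65 (SE 0.180, adjusted p = 0.381, limma). It was higher in both mutants, as ilk was, and each genotype was tight. The leukocyte-rich parvin gene parvg was at 491 and 386 against 511 and 627, the other way. The Ras suppressor gene rsu1, whose product binds PINCH, was at 142 and 410 against 551 and 751, again lowest in mutant replicate 1. The adaptor gene nck2b was at 230 and 251 against 165 and 194.

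The list for focal adhesion kinase and paxillin signalling had a median of -0.44, with 17 of 25 genes lower. The groups were non-overlapping and lower at 44.0% of the list, against 25.7% of all genes, and higher at 20.0%, against 26.6%. In the other lists the lower share ran from 16.7% (talin partners) to 38.9% (alpha-actinins and costamere). At an unadjusted p under 0.05, 4 genes (16%) were lower, against 6.93% of all genes and 0% to 11.1% in the other lists. Focal adhesion kinase, ptk2aa, was at 140 and 191 in mutants versus 262 and 371, a log2 difference of -0.93 (SE 0.301, adjusted p = 0.381, limma). Leupaxin, lpxn, the paxillin relative of blood cells, was at 118 and 95 against 160 and 280. The paxillin-binding GTPase regulator gene git2a was at 366 and 596 against 684 and 935. The Src-family gene fynb was at 21 and 60 against 101 and 95. All 4 were lower in both mutants, while pxna itself was higher. Since these 4 were named for their small p, nothing is read from their shared direction. In mutant replicate 1, fynb was under 0.5 times every other library. Without that library its log2 difference was -0.70 in place of -1.43. Leaving out mutant replicate 1 brought the list's median to -0.21, as did leaving out wild-type replicate 2, and quantile normalisation gave -0.24.

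Zyxin relatives and actin-assembly genes were balanced, at 14 of 27 lower (median -0.02). Among genes with a mean of 50 or more, the smallest p belonged to PDZ-LIM genes that bind alpha-actinin, pdlim5a at 184 and 142 in mutants versus 60 and 61 and pdlim5b at 9496 and 6310 against 5459 and 4477. The former had a log2 difference of 1.4 (SE 0.308, adjusted p = 0.381, limma). Beside them, lmo7a was at 9792 and 8504 against 7407 and 6577, while pdlim3b was at 720 and 1005 against 1031 and 1288. The largest difference in size was at wtip, a LIM-domain gene with few reads, at 2 and 31 against 39 and 64, again lowest in mutant replicate 1. These genes did not share a direction with one another.

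Tensins, filamins and vinexin-family linkers were also balanced, at 12 of 24 lower (median 0.00). Filamin A, flna, which crosslinks actin and binds integrin, was at 11338 and 9221 in mutants versus 14656 and 16400. The gene sorbs2b, of the vinexin family of linkers, was at 2700 and 2663 against 2110 and 1385, higher in the mutants. The paralog sorbs2a was at 1280 and 3494 against 3842 and 4031, lower in the mutants, and sorbs3 at 748 and 514 against 607 and 637, overlapping. The tensin genes tns1b (56 and 197 against 289 and 301) and tns2b (1256 and 977 against 1835 and 1416) were lower in both mutants. Of the tensin genes listed, these were named for their small p, so nothing is read from their shared direction. In mutant replicate 1, sorbs2a and tns1b were under 0.5 times every other library. Without that library the log2 difference of tns1b was -0.58 in place of -1.48.

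Among the other alpha-actinins and costamere proteins, taken as 1 list, 11 of 18 genes were lower (median -0.12). Beside actn2b these were led by lama2, the laminin chain that dystroglycan binds, at 2 and 52 against 104 and 136, a log2 difference of -3.25 that was -1.18 without mutant replicate 1. The ankyrin gene ank2b was at 3741 and 3095 against 2613 and 2116. The sarcoglycan gene sgca was at 451 and 364 against 306 and 113, and its value in wild-type replicate 2 was under 0.5 times every other library.

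Cadherin junctions, the other home of vinculin, had 13 of 20 genes lower (median -0.10). The plakophilin gene pkp3a, the only one at an unadjusted p under 0.05, had few reads, at 5 and 19 against 29 and 55. Among genes with a mean of 50 or more, the 4 with the smallest p were the endothelial cadherin gene cdh5 at 8274 and 8718 against 6947 and 5546, afdna, the afadin gene, at 1732 and 1800 against 1573 and 1085, the ZO-1 gene tjp1b at 1065 and 902 against 1048 and 1735, and the desmoplakin gene dspa at 1843 and 2353 against 2373 and 2798. Of these 4, the groups overlapped at tjp1b and were separate at the rest, with steps of 0.45 or less on the log2 scale.

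Among actomyosin genes and those driven by SRF and its cofactors MRTF, 27 of 39 were lower (median -0.14). Of the 3 non-muscle myosin heavy chain genes listed, whose products pull on adhesions, 2 were lower in both mutants, myh9b at 3807 and 6122 against 8204 and 13703 and myh10 at 4570 and 5994 against 6893 and 8452. Their log2 differences were -1.13 (SE 0.348) and -0.54 (SE 0.235), with adjusted p = 0.381 and 0.390 in limma. The third, myh9a, was at 1136 and 1438 against 1351 and 2725, with overlapping groups. Calponin gene cnn1b (329 and 612 against 671 and 1294) and transgelin gene tagln (3815 and 2560 against 4094 and 6948) were also lower. Both are also among the smooth muscle markers. Of the other smooth muscle markers in this list, acta2 was at 2922 and 1803 against 2231 and 2397, overlapping. The gene myh11a was higher in both mutants, at 2035 and 2212 against 1741 and 2016. The values of myh9b, myh10 and cnn1b increased in the order mutant replicate 1, mutant replicate 2, wild-type replicate 1, wild-type replicate 2. That is the order of vclb, and 13.3% of all genes had it. It needs groups that do not overlap, and of the 4306 genes non-overlapping with the mutant lower, 2233 had it. The genes myh9b, myh10 and cnn1b were named for their small p, so nothing is read from their shared order.

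The table's own annotation offered a wider view. Of 198 tested genes annotated to the KEGG focal adhesion pathway, members apart, 108 were lower and 90 were higher (median -0.06), and at an unadjusted p under 0.05 there were 16 lower (8.08%) and 9 higher (4.55%), near the 6.93% and 5.89% of all genes. Upstream of the members, the fibronectin receptor chain itga5 was at 2783 and 3005 in mutants versus 5040 and 4989, a log2 difference of -0.79 (SE 0.183, adjusted p = 0.381, limma). Both genotypes were tight at that gene. The growth factor gene pdgfd was at 246 and 225 against 97 and 72, and tnc and itga2b completed the 4 with the smallest p, at -1.71 and 1.02. The annotation itself placed vcla, tln1, tln2a, ilk, pxna, zyx and actn1 in the pathway and left the rows of vclb and tln2b without a pathway.

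Where the list genes were much lower in the mutant, mutant replicate 1 often carried the value. Of 165 list genes with a mean of 50 or more, 13 (7.88%) were in that library at under 0.5 times every other, beside 4.50% of all genes of that level. Of the 14 list genes lower at an unadjusted p under 0.05, 6 were of this kind. The matching share among all genes lower at that threshold was not counted, so nothing particular to adhesion genes is read from it. The member vclb was not of this kind. Its log2 difference from the wild-type mean was -2.73 in mutant replicate 1 and -2.23 in mutant replicate 2.

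**Figure D5:**
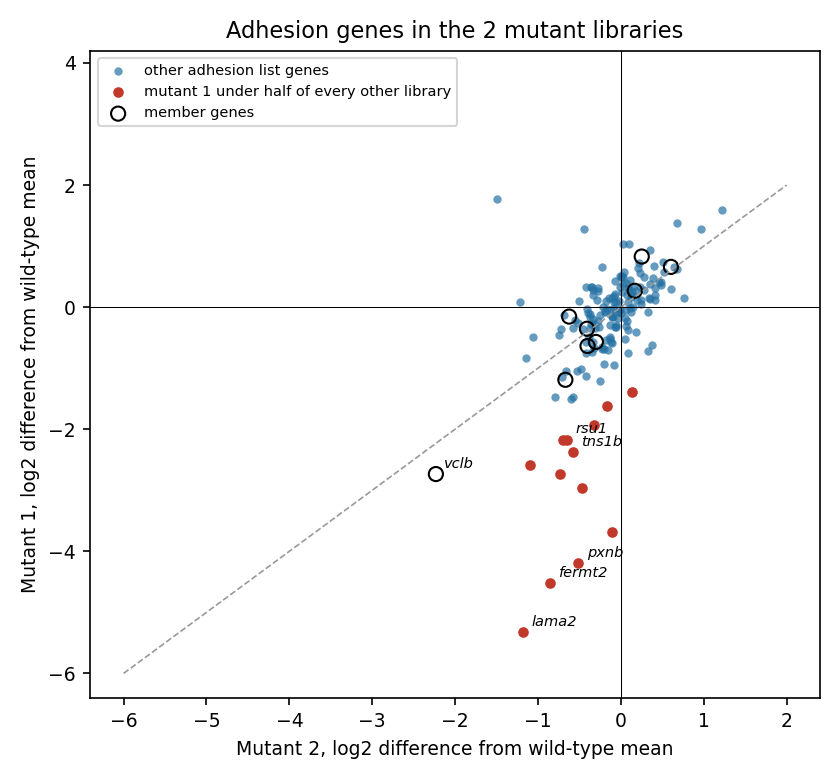
For list genes with a mean of 50 or more, the log2 difference from the wild-type mean in mutant replicate 1 (vertical) and mutant replicate 2 (horizontal). Open circles are members, red points are the 13 genes at under 0.5 times every other library in mutant replicate 1, and the dashed line marks equal values. The gene vclb lies near the dashed line, at -2.73 and -2.23, while fermt2, pxnb and lama2 lie far below it.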

How the data were processed

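Messenger RNA was measured in 4 ventricle libraries. STAR 2.4.0a, featureCounts 1.4.5-p1 (Subread), DESeq2 1.6.2 and the build GRCz10 (danRer10) appear, with no settings, in the submitters' processing notes. Coordinates in the deposited file reach 78048911 on chromosome 4, beyond what GRCz10 has there, so coordinates are printed as the table gives them with the build unsettled. Whether counting used strand is not stated in those sources.

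The deposited values are whole-number scores that the authors made; low values lie on a regular spacing, as read counts divided by a size factor and rounded would. The spacing gave factors of 0.874, 0.946, 0.952 and 1.32 (mutants 1 and 2, then wild types 1 and 2), and 99.7% or more of the low values lay on it where the factor is below 1. Multiplying by the factor gave approximate reads. The factor of wild-type replicate 2 is above 1, so whole reads could not be recovered there. Counting errors cover counting alone.

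Genes with a mean of 10 or more were fitted with limma 3.58.1 (limma-trend, R 4.3.3, data.table version 1.17.8) on log2(value + 1), with genotype as the only term. P-values were 2-sided and adjusted with Benjamini-Hochberg over 16730 genes at a threshold of 0.05. That scale understates changes of low genes. There were 2 residual degrees of freedom per gene, with 4.01 more borrowed by limma. The fit and the spacing were tried on simulated data. For the fit, the simulated counts had the same spread setting for every gene and no library that stood apart. The data differ from that, so the simulation does not show how the fit behaves on them. Python 3.11.15, pandas 2.3.3, numpy 2.4.6 and matplotlib 3.10.9 made the summaries and plots.

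The members, the 8 adhesion lists and the marker lists were chosen with earlier results of these data known. Of 204 listed adhesion symbols 186 matched the table, by symbol, by UniProt gene name or by a RefSeq synonym (assembly GRCz12tu). Genes named in the text are all member rows, up to 4 per list with a mean of 50 or more and the smallest unadjusted p, the members' paralogs, ccn2a, and the 5 genes most like each vinculin row. The genes pkp3a, wtip, myh9a, sorbs2a, sorbs3, exoc7, adkb, adka, hpdl and lhpp fall outside that rule and were chosen after their values were seen. The same holds for acta2 and myh11a among the actomyosin genes. The gene smpd1 was named because its row overlaps that of ilk. The annotated KEGG list, the chromosome neighbours, the paralog ratios and the count of genes low in 1 library were added after the values were seen. The alternatives tried were 2 other pseudocounts, 2 other filters, quantile normalisation, limma voom on approximate reads, the replicate number as a block, and each library left out. Transcript lengths were not used here, so ratios and shares of paralogs are read only across libraries, not as levels of one gene against another.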

Additional observations from a re-analysis of the deposited data

How the results depend on the processing

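Filters and the block cannot change the sign of a log2 difference. Where groups do not overlap, neither another pseudocount nor leaving out a library can change it. The 98 member log2 differences recomputed under the 11 alternatives kept their sign. In each of them 0 genes passed an adjusted p of 0.05. Under quantile normalisation ilk moved to 0.093, zyx to -0.47 and tln1 to -0.65. The count of genes at an unadjusted p under 0.05 ran from 448 to 2597 when 1 library was left out (2145 with all), and that of genes with non-overlapping groups from 11841 to 13357 (8753 with all), which smaller groups raise by construction. For list genes the count of 19 ran from 2 to 35, and it was 31 with the replicate number as a block, and the cause was not tested. Same-numbered libraries did not deviate together (r = 0.004), so the numbers were not read as pairs.

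List medians with 1 library left out ran from -0.12 to -0.033 for talin partners and -0.11 to 0.13 for ilk partners. They ran from -0.48 to -0.21 for kinase and paxillin signalling and from -0.13 to -0.0095 for zyxin relatives. For tensins and filamins they ran from -0.16 to 0.16, and for alpha-actinins and the costamere from -0.21 to -0.067. For cadherin junctions they ran from -0.12 to -0.0037, and for actomyosin genes from -0.23 to -0.057. Under quantile normalisation they were -0.11 for ilk partners, -0.24 for kinase and paxillin signalling and -0.10 for zyxin relatives. By the same setting they were -0.23 for alpha-actinins and the costamere, -0.16 for cadherin junctions and -0.25 for actomyosin. At a mean of 50 or more the median for kinase and paxillin signalling was -0.27. With 1 library left out, the lone sample of a genotype is assumed to vary like the others. Depth limits tln2b most.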
